A study of Mus musculus with 12 samples.

Results

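In macrophages given CS-PA/CNP alone, 61 genes had at most 50% of the transcript level measured in untreated control cells. Levels were CPM, a gene's read count over the total of its library, scaled to 1000000 reads, averaged over the 3 libraries of a group. The members were the genes with at least 2 CPM in control and a CS-PA/CNP mean of at most 0.5 of the control mean. Of 21899 genes in the table, 10325 had at least 2 CPM in control, and 64 of those (0.620%) met the second condition. Plau, Hbegf and Fn1 were set aside, which left 61. Since these values chose the genes, the difference between CS-PA/CNP and control is given as a description with no test.

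RNA was sequenced from primary bone marrow-derived macrophages of wild-type mice, in 12 libraries. There were 4 groups of 3 libraries each: cells given PgLPS and CS-PA/CNP (called both agents), cells given PgLPS alone, cells given CS-PA/CNP alone, and untreated control cells. The labels expand neither agent's name and give no dose, time, order of addition, strain, sex or age. They call the libraries biological replicates without saying which animal or culture each came from, so a p-value here reflects how far these libraries scatter, a scatter that could be technical.

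Library totals ran from 14992707 to 20082900 reads. Mitochondrial genes held 1.21% to 1.28% of reads with both agents, 1.07% to 1.17% with PgLPS, 1.60% to 1.74% with CS-PA/CNP and 1.62% to 1.82% in control. All 10 macrophage marker genes had reads, and their summed level lay between 24749.5 and 28596.7 CPM in the 12 libraries. Most of that sum was Lyz2, with group means of 15178.1 to 19958.9 CPM, and single markers did differ between groups. Fcgr1 averaged 1535.9 CPM with PgLPS against 176.2 CPM in control, and Adgre1 3389.0 against 1215.0 CPM. C1qa was lower, at 162.2 against 296.7 CPM, and Mertk was alike, at 83.9 against 84.3 CPM. Markers of T and NK cells summed to at most 1.03 CPM and those of B cells to at most 5.98 CPM in any library. In bulk libraries such as these, fewer cells of a type and less RNA per cell cannot be told apart.

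Macrophages grown from bone marrow keep a resting programme of surface receptors, signalling regulators and growth factors. Bacterial lipopolysaccharide, sensed through Toll-like receptors, turns on cytokine genes in these cells and also lowers many transcripts of the resting programme. Several of the 61 genes act in G protein and Ras signalling, where regulators of G protein signalling speed the shut-off of G proteins and guanine nucleotide exchange factors load small GTPases with GTP.

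Most of the genes that were low with CS-PA/CNP alone were lower still with PgLPS, and nearly as low with both agents. The PgLPS mean was below the CS-PA/CNP mean for 52 of 61 members, and for 51 on the TMM scale. On library totals 77.5% of all genes with at least 2 CPM in control had this direction too, so on that scale it is not particular to the members. The share over all genes on the TMM scale is not given here, and the 77.5% carries the scaling shift described below. With CS-PA/CNP the members stood at 22.9% to 49.7% of control, with a median of 43.7%, as the rule requires. The median was 12.5% of control with both agents (range 1.58% to 75.3%) and 8.03% with PgLPS (range 0% to 114.7%). Over the 10325 genes with at least 2 CPM in control, the medians were 77.1% with both agents and 74.3% with PgLPS. These percentages share the control libraries with the rule, so they are descriptions. Over all tested genes, scaling by library totals in place of TMM, edgeR's normalization, shifted the median log2 fold change over control. The shift was −0.36 for both agents, −0.41 for PgLPS and −0.04 for CS-PA/CNP. On the TMM scale the members' medians were 16.1% with both agents, 10.7% with PgLPS and 44.9% with CS-PA/CNP.

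**Figure D1:**
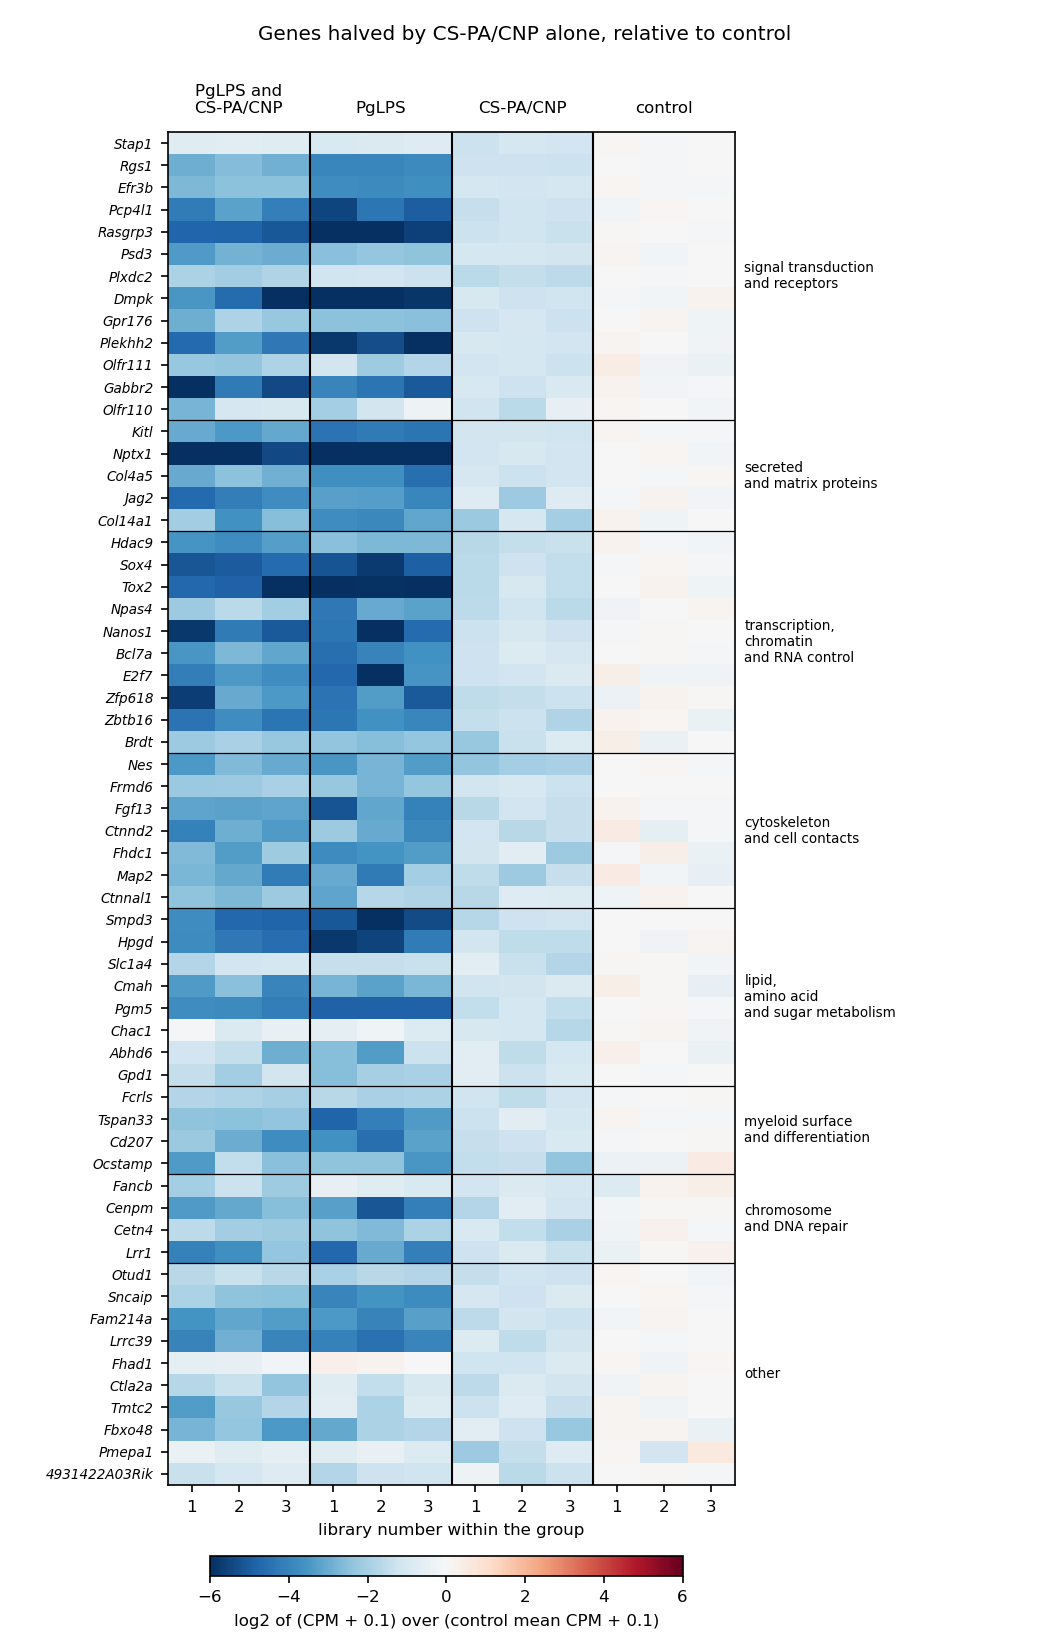
Level of each of the 61 genes (rows, grouped by role) in each of the 12 libraries (columns, by group), as log2 of CPM plus 0.1 over the control mean plus 0.1. The colour scale runs from −6 to 6, and blue is below control. The PgLPS columns are the darkest for most rows, while Stap1, Chac1, Pmepa1 and Fhad1 stay pale in the PgLPS and both-agents columns.

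With both agents, 57 of 61 members (93.4%) were at or below 50% of control, against 16.2% of all genes with at least 2 CPM in control. With PgLPS this held for 56 members (91.8%), against 20.7% of all such genes. At or below 10% of control were 23 members with both agents (37.7%, against 0.939% of all) and 32 with PgLPS (52.5%, against 2.02%). On the TMM scale the counts at or below 50% were 55 with both agents and 51 with PgLPS, and those at or below 10% were 17 and 30. No member was at least 2-fold above control in either group, against 5.19% of all genes with both agents and 6.12% with PgLPS. On library totals the means lay in the order control, CS-PA/CNP, both agents, PgLPS from high to low for 40 members. Of all such genes 31.9% had this order on the same scale.

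Exceptions to this order fell into 4 patterns. PgLPS was above both agents, with control and CS-PA/CNP highest, for 12 members. In 5 members PgLPS lay between control and CS-PA/CNP, and both agents were lowest. Stap1, Chac1 and Pmepa1 were lowest with CS-PA/CNP alone. Fhad1 was highest with PgLPS, at 114.7% of control on library totals, and was above control on the TMM scale as well. On library totals, the libraries of both agents all lay below those of control for 58 of 61 members, against 63.1% of all genes. The exceptions were Pmepa1, Chac1 and Fhad1. The PgLPS libraries all lay below control for 58 of 61 members too, against 64.0% of all genes, with overlap for Pmepa1, Fhad1 and Fancb. These shares over all genes carry the same scaling shift.

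**Figure D2:**
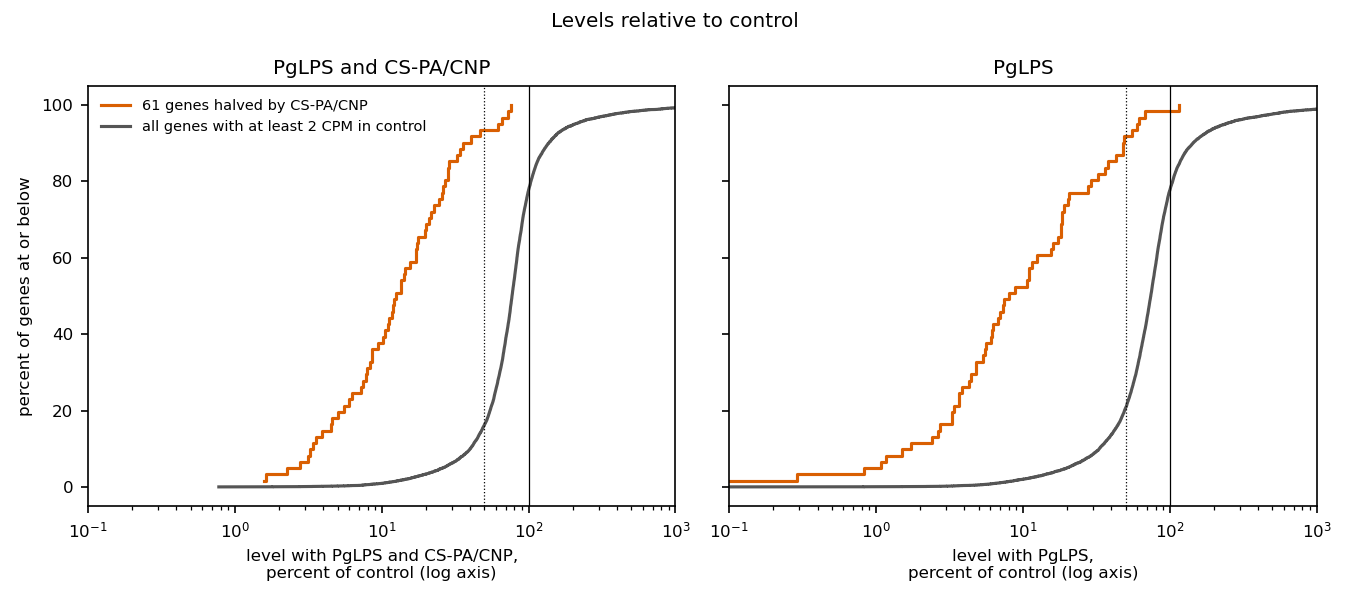
Cumulative share of genes (y axis, percent) at or below a given level relative to control (x axis, percent of the control mean CPM, log axis), with both agents on the left and with PgLPS on the right. Orange is the 61 genes and grey all genes with at least 2 CPM in control. The dotted line marks 50% and the solid line 100% of control. The orange curves reach 93.4% of members at the dotted line with both agents and 91.8% with PgLPS.

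Setting both agents against PgLPS asks how these genes differ when CS-PA/CNP is present beside PgLPS. It contrasts libraries that the rule did not use, but the control and CS-PA/CNP libraries entered the filter on low counts and the estimate of the spread. Of the 61 members, 14 rose (23.0%, against 9.42% of the 11656 genes tested) and 6 fell (9.84%, against 10%, the share among all genes), by the edgeR quasi-likelihood test at a Benjamini-Hochberg (BH) adjusted p under 0.05. The other 41 were not called, 29 with a log2 fold change above 0 and 12 below. In a fit of the both-agents and PgLPS libraries alone, 39 members passed the filter, of which 9 rose and 5 fell. The shares over all genes given here belong to the fit of 12 libraries and not to this smaller fit. At least 2-fold as well as called were 13 higher (21.3%, against 1.30% of tested genes) and 2 lower (3.28%, against 1.74%). Both the 14 and the 13 include Dmpk and Plekhh2, which entered the test through libraries that the rule used, as did 22 of the 61 members. The 23.0% and 21.3% therefore do not rest on the compared libraries alone. The count lower was 0 without PgLPS library 1 or both-agents library 1, 1 without PgLPS library 3 and 3 without both-agents library 2. Among the 13 higher, leaving out 1 library took the log2 fold change as low as 0.91 for Rgs1, 0.93 for Col4a5 and 0.88 for Smpd3. For Rasgrp3 it reached 0.87 and for Pcp4l1 0.62, while the others stayed at 1.05 or above. Pcp4l1, Smpd3 and Dmpk also lost their call without 1 library. The median log2 fold change was 0.31 over the members and −0.01 over all tested genes. Without overlap, the 3 both-agents libraries were higher for 17 of 61 members, against 21.2% of all genes with at least 2 CPM in control. They were lower for 5 of 61, against 11.5%. Neither count was far from the share over all genes.

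Precision differed between members. The 29 members with at least 50 reads summed over the PgLPS libraries held 8 rises and all 6 falls, and the 32 with fewer reads held 6 rises. Among the uncalled members, 20 had a standard error above 0.5 on the log2 scale, so that a 2-fold difference was not detectable at this depth. The 22 members that missed the filter in the fit of both agents and PgLPS alone entered the test through their higher counts in control or CS-PA/CNP. Dmpk and Plekhh2, counted among the 14 rises and the 13 of at least 2-fold, were 2 of them. The 14 members that rose were at 1.64% to 25.9% of control with both agents.

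**Figure D3:**
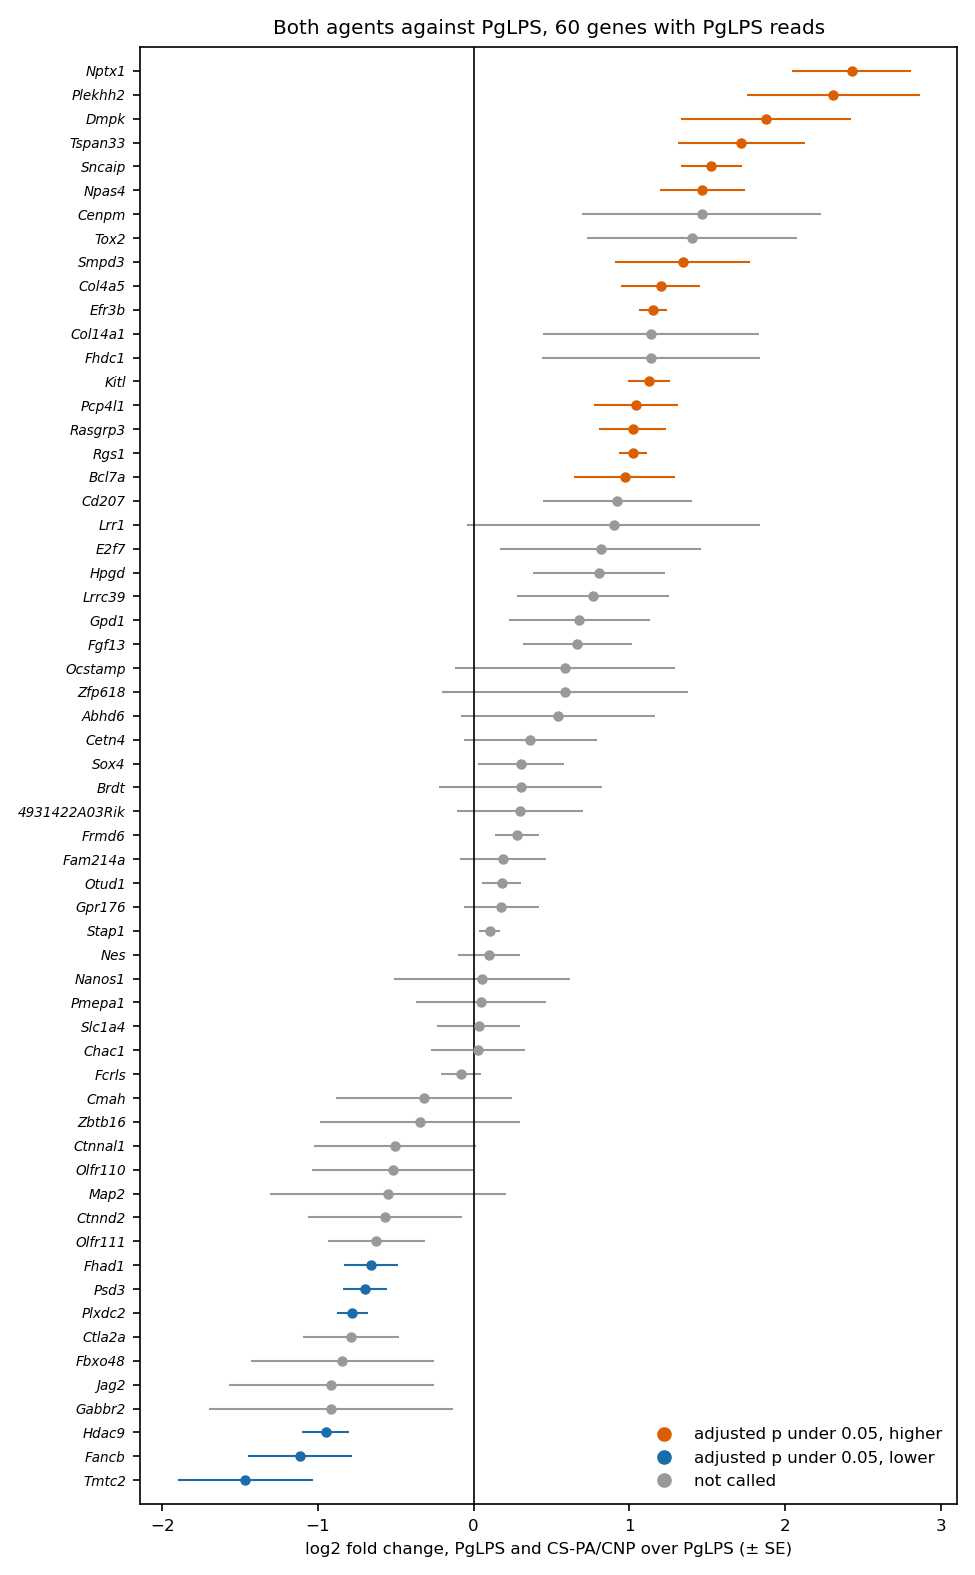
Log2 fold change of both agents over PgLPS (x axis, point with 1 standard error on each side) for 60 genes with PgLPS reads. Orange marks the 14 called higher, blue the 6 called lower and grey those not called. Nptx1 is at the top with 2.43 and Tmtc2 at the bottom with −1.47.

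The promoters of Kitl, Rasgrp3 and Hdac9 are shown because these members moved in different directions when CS-PA/CNP was present beside PgLPS. Each also holds the letters TATAAA upstream of the start printed here, in Rasgrp3 on the other strand. Kitl encodes stem cell factor, the ligand of the KIT receptor. Rasgrp3 encodes an exchange factor that activates Ras and Rap GTPases, and Hdac9 a class IIa histone deacetylase. The sequences are the 250 bases before the annotated start, 5′ to 3′ on the gene's strand, from RefSeq on GRCm38.p6. Capitals mark the motif matches. Kitl lies at chr10:100015571-100015820 on the plus strand, Rasgrp3 at chr17:75435655-75435904 on the plus strand and Hdac9 at chr12:34917096-34917345 on the minus strand.
Kitl: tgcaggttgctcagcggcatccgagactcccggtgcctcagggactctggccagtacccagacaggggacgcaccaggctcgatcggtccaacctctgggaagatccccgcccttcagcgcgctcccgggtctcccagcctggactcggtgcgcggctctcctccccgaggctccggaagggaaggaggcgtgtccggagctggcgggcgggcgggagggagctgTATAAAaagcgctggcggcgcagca
Rasgrp3: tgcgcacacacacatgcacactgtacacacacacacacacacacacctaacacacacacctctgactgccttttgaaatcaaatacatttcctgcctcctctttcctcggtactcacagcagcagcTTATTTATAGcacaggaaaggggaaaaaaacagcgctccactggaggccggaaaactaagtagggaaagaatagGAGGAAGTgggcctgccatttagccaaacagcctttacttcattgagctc
Hdac9: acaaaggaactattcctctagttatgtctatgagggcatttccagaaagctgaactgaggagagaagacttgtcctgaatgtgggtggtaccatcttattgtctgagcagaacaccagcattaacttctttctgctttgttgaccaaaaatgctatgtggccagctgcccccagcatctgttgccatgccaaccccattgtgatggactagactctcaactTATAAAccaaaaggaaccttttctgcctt

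In Kitl the capitals mark a TATA box (TATAAA) that begins 25 bases before the start, and in Hdac9 one that begins 29 bases before it. In Rasgrp3 they mark a MEF2 site that begins 124 bases before the start and contains TATAAA on the other strand, at 121 bases. They also mark a PU.1 site (GAGGAAGT) at 50 bases. Hdac9 and Rasgrp3 each have another annotated start, not shown, and the 250 bases before it hold no TATAAA on either strand. The shared letters thus depend on which start is printed. RefSeq promoters, each 250 bases before to 50 after a start, were found for 48 of the 61 members, 64 promoters in all. Matches were counted on both strands. TATAAA, at any place in these bases, was in 18.8% of member promoters (12 promoters of 10 genes). It was in 13.6% of all 32851 promoters and 6.57% of the 10723 promoters of genes with at least 2 CPM in control.

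The MEF2 site, which shares letters with TATAAA as in Rasgrp3, was in 6.25% of member promoters, 3.19% of all and 1.37% of those of expressed genes. Its member genes were Cmah, Fgf13, Lrrc39 and Rasgrp3. The AP-1 site TGANTCA was in 9.38% of member promoters, 7.81% of all and 4.89% of expressed ones. The NF-kB site was in 1.56%, 4.51% and 5.13% in the same order, the PU.1 site in 4.69%, 3.20% and 3.39%, the E-box CACGTG in 10.9%, 7.15% and 10.4%, and the antioxidant response element core TGACNNNGC in 17.2%, 12.4% and 14.5%. The cyclic AMP response element TGACGTCA and the CArG box had no match in member promoters, against 1.79% and 1.63% of all promoters. The median GC content was 61.5% in member promoters, 52.7% in all and 61% in expressed ones. A match is a description of these letters and not a measured site.

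The largest role group was signalling and receptors, with 13 members, of which 6 rose and 2 fell with both agents against PgLPS. Over all tested genes 9.42% rose and 10% fell, and no role group was tested against these shares. The median level of the 13 members was 14.3% of control with both agents, 7.47% with PgLPS and 44.5% with CS-PA/CNP. Rgs1, a GTPase-activating regulator of G proteins, had 33.5, 42.5 and 35.5 CPM with both agents, 17.2, 17.4 and 18.4 CPM with PgLPS, 109.9, 110.1 and 105.4 CPM with CS-PA/CNP, and 265.7, 246.7 and 266.6 CPM in control. The 4 groups did not overlap. Rgs1 rose by 1.02 ± 0.09 on the log2 scale with both agents over PgLPS (edgeR BH-adjusted p = 7.7e-08), a 2.03-fold difference, and stayed at 14.3% of control.

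Efr3b, a scaffold that holds a phosphatidylinositol 4-kinase at the plasma membrane, had 24.6, 28.8 and 28.6 CPM with both agents, 12, 11.3 and 12.3 CPM with PgLPS, 77.1, 72.3 and 76.1 CPM with CS-PA/CNP, and 173.8, 153.2 and 149.0 CPM in control. Its groups kept apart in the same order as those of Rgs1. The rise with both agents over PgLPS was 1.15 ± 0.09 (edgeR BH-adjusted p = 2.5e-08). Rasgrp3, whose promoter is printed above, had 2.28, 2.21 and 1.78 CPM with both agents, 0.734, 0.942 and 1.25 CPM with PgLPS, 26.0, 28.1 and 25.5 CPM with CS-PA/CNP, and 68.5, 64.1 and 60.9 CPM in control. It rose by 1.02 ± 0.22 (edgeR BH-adjusted p = 0.0019) and was at 3.24% of control with both agents, against 1.51% with PgLPS.

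Pcp4l1, a small protein related to the calmodulin regulator PCP4, had 4.73, 9.47 and 4.97 CPM with both agents, 1.87, 4.32 and 2.75 CPM with PgLPS, and 79.1, 96.3 and 89.1 CPM in control. Its both-agents library 2 stood highest. Pcp4l1 rose by 1.04 ± 0.27 (edgeR BH-adjusted p = 0.0091), but by 0.62 and without a call when that library was left out (edgeR BH-adjusted p = 0.073), and it was not called in the fit of both agents and PgLPS alone (edgeR BH-adjusted p = 0.051). Per kilobase of gene length, Pcp4l1 had the highest level of the 61 genes in control, with 23.3 CPM per kilobase with CS-PA/CNP, against 55.9 in control. Plekhh2, a protein with pleckstrin homology and FERM domains, rose by 2.31 ± 0.56 (edgeR BH-adjusted p = 0.0054) on 38 reads with both agents and 7 with PgLPS, and lay at 5.55% and 1.08% of control in those groups. The log2 fold change was 2.90 without PgLPS library 2, and with so few reads Plekhh2 was not testable in the fit of both agents and PgLPS alone.

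Dmpk, a serine and threonine kinase, had 2.81, 1.24 and 0.368 CPM with both agents and 0.400, 0.277 and 0.467 CPM with PgLPS, so the groups overlapped through both-agents library 3. Dmpk rose by 1.88 ± 0.55 (edgeR BH-adjusted p = 0.019). The call was lost without both-agents library 1, where the log2 fold change was 1.07 (edgeR BH-adjusted p = 0.17), and without PgLPS library 2 (edgeR BH-adjusted p = 0.051). It too was not testable in the fit of both agents and PgLPS alone.

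Psd3 and Plxdc2 moved the other way. Psd3, an exchange factor for the GTPase ARF6, had 5.14, 7.77 and 6.87 CPM with both agents, 9.74, 11 and 10.3 CPM with PgLPS, 26.6, 26.4 and 26.1 CPM with CS-PA/CNP, and 62.7, 49.3 and 54.5 CPM in control. It fell by 0.70 ± 0.14 (edgeR BH-adjusted p = 0.0013), so its level with both agents was below that with either agent alone. Plxdc2, a transmembrane protein of the plexin domain family, had 13, 11.4 and 14.3 CPM with both agents, 21.8, 22.2 and 20.0 CPM with PgLPS, 16, 18.5 and 16.3 CPM with CS-PA/CNP, and 50.9, 47.2 and 50.2 CPM in control. Every both-agents library of Plxdc2 lay below every library of the other groups. Plxdc2 fell by 0.78 ± 0.10 (edgeR BH-adjusted p = 1.2e-05).

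Stap1, a signalling adaptor with an SH2 domain, was the only member of this group with its lowest mean in CS-PA/CNP alone. It had 156.1, 171.4 and 158.3 CPM with both agents, 139.3, 143.9 and 152.8 CPM with PgLPS, 106.1, 126.1 and 118.1 CPM with CS-PA/CNP, and 271.4, 253.1 and 262.7 CPM in control. The PgLPS libraries of Stap1 stood above those of CS-PA/CNP, as they did for Plxdc2, and those of both agents stood above PgLPS. The difference between both agents and PgLPS was 0.10 ± 0.07 (edgeR BH-adjusted p = 0.34), with a 95% interval of −0.03 to 0.24, and was not called.

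The group also held 4 receptors coupled to G proteins, of which edgeR and DESeq2 each called 0 and an unadjusted edgeR p under 0.05 was reached by 0. Gpr176, an orphan receptor, differed by 0.18 ± 0.24 on the log2 scale (edgeR BH-adjusted p = 0.68) and lay at 20.1% of control with both agents and 17.3% with PgLPS. Gabbr2, a subunit of the GABA-B receptor, had 6 reads with both agents and 11 with PgLPS, 1.58% and 3.27% of control. Olfr110 and Olfr111 are neighbouring, similar odorant receptor genes on chromosome 17, and reads could be split between them. Their values are uncertain for that reason, at −0.52 ± 0.52 (edgeR BH-adjusted p = 0.55) for Olfr110 and −0.62 ± 0.31 (edgeR BH-adjusted p = 0.18) for Olfr111.

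**Figure D4:**
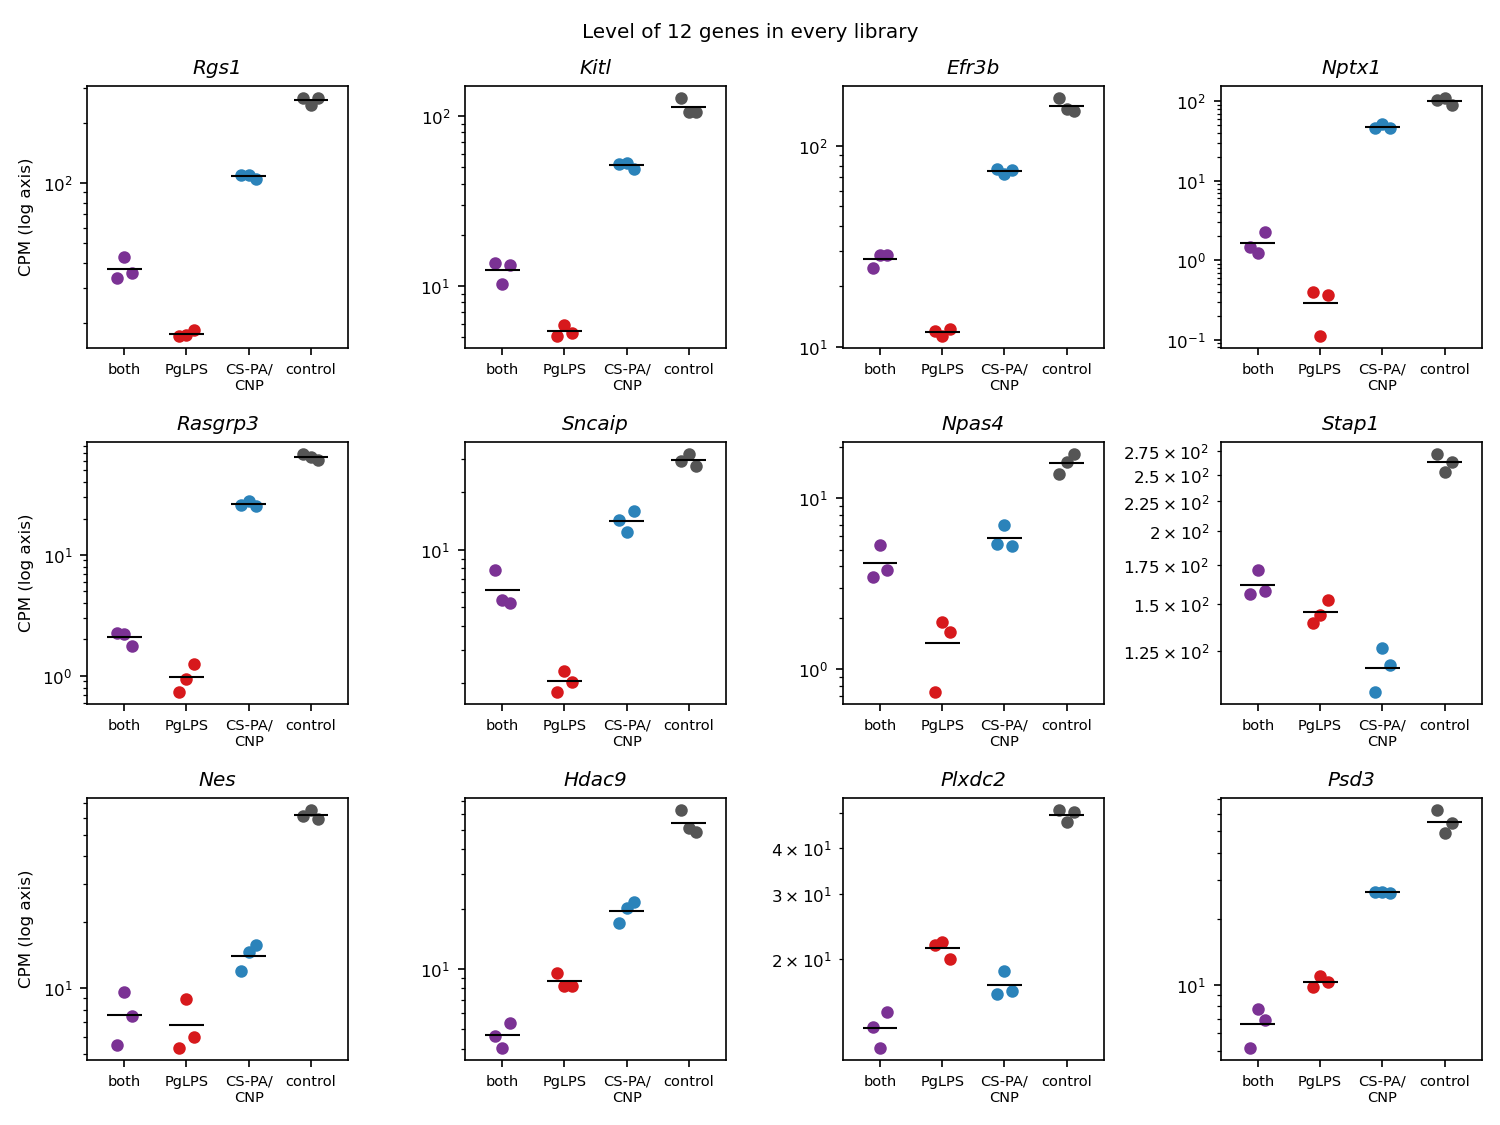
CPM (log axis) of 12 genes in every library, with points for libraries and a bar for the mean of a group; "both" is PgLPS and CS-PA/CNP together. Rgs1, Kitl, Efr3b, Nptx1, Rasgrp3, Sncaip and Npas4 are lowest with PgLPS, Hdac9, Plxdc2 and Psd3 are lowest with both agents, Stap1 is lowest with CS-PA/CNP, and the both-agents and PgLPS points of Nes overlap.

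Of 5 secreted and matrix proteins, 3 rose with both agents against PgLPS. None fell by edgeR, by DESeq2 or at an unadjusted edgeR p under 0.05. The median level was 11% of control with both agents, 5.58% with PgLPS and 45.3% with CS-PA/CNP. Kitl had 13.7, 10.2 and 13.2 CPM with both agents, 5.07, 5.93 and 5.30 CPM with PgLPS, 52.3, 53.0 and 49.0 CPM with CS-PA/CNP, and 127.5, 105.3 and 105.1 CPM in control. The 4 groups were apart. Kitl rose by 1.13 ± 0.13 (edgeR BH-adjusted p = 4.1e-06), to 11% of control with both agents, against 4.82% with PgLPS.

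Nptx1, a secreted neuronal pentraxin, had 1.46, 1.24 and 2.27 CPM with both agents, 0.400, 0.111 and 0.364 CPM with PgLPS, 46.1, 51.8 and 45.7 CPM with CS-PA/CNP, and 102.8, 110.7 and 89.3 CPM in control. It was lowest with PgLPS, on 15 reads. Nptx1 rose by 2.43 ± 0.38 with both agents over PgLPS (edgeR BH-adjusted p = 0.00011), a 5.39-fold difference, and was at 1.64% of control there.

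Col4a5, a chain of basement membrane collagen, had 2.10, 3.09 and 2.33 CPM with both agents, 1.27, 1.27 and 0.675 CPM with PgLPS, and 17.6, 16.7 and 18.4 CPM in control. It rose by 1.20 ± 0.25 (edgeR BH-adjusted p = 0.0019). Jag2, a ligand of Notch receptors, had −0.91 ± 0.66 (edgeR BH-adjusted p = 0.38) on 11 reads with both agents and 20 with PgLPS. The fibril-associated collagen gene Col14a1 had 1.14 ± 0.69 (edgeR BH-adjusted p = 0.29) on 21 and 9 reads. Neither was called, and at these counts a 2-fold difference was not detectable.

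Among 10 genes of transcription, chromatin and RNA control, 2 rose and 1 fell. Hdac9 had 4.62, 4.02 and 5.40 CPM with both agents, 9.60, 8.25 and 8.26 CPM with PgLPS, 17.1, 20.2 and 21.6 CPM with CS-PA/CNP, and 62.8, 51.1 and 48.8 CPM in control. The 4 groups did not overlap, and both agents were lowest. Hdac9 fell by 0.95 ± 0.15 (edgeR BH-adjusted p = 0.00014), to 8.62% of control with both agents, against 16.1% with PgLPS.

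Npas4, a transcription factor induced by neuronal activity, had 3.45, 5.30 and 3.80 CPM with both agents, 0.734, 1.88 and 1.66 CPM with PgLPS, 5.39, 6.97 and 5.28 CPM with CS-PA/CNP, and 13.9, 16.4 and 18.2 CPM in control. Npas4 rose by 1.47 ± 0.27 (edgeR BH-adjusted p = 0.00064) to 25.9% of control with both agents, the highest share among the 14 members that rose, and its highest both-agents library overlapped the CS-PA/CNP range. Bcl7a, a subunit of SWI/SNF chromatin remodelling complexes, had 0.935, 1.65 and 1.23 CPM with both agents and 0.400, 0.609 and 0.831 CPM with PgLPS. Bcl7a rose by 0.97 ± 0.33 (edgeR BH-adjusted p = 0.044). The call depended on 4 of the 6 libraries compared: the edgeR BH-adjusted p was 0.16 without PgLPS library 1, 0.087 without PgLPS library 2, 0.21 without both-agents library 2 and 0.071 without both-agents library 3. It was 0.14 in the fit of both agents and PgLPS alone.

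Sox4, a transcription factor of the SRY-related family, was among the lowest relative to control in both groups, at 3.13% with both agents and 2.42% with PgLPS, and its log2 fold change was 0.31 ± 0.28 (edgeR BH-adjusted p = 0.50). Tox2, an HMG-box factor, stood at 2.27% and 0.825% of control in those groups, on 20 and 7 reads (1.40 ± 0.67, edgeR BH-adjusted p = 0.17). Nanos1, an RNA-binding repressor of translation, stood at 2.78% and 2.73%. Zbtb16, the zinc finger factor PLZF, was at 3.59% with both agents and 4.47% with PgLPS. E2f7, an atypical repressor of the E2F family, and Zfp618 were at 6.23% and 5.96% with both agents and 3.29% and 3.87% with PgLPS. These genes and Brdt, a testis bromodomain protein, were not called.

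None of the 7 genes of the cytoskeleton and cell contacts was called by edgeR or by DESeq2, a second count test, and none had an unadjusted edgeR p under 0.05. Nes, the intermediate filament protein nestin, had the lowest level relative to control with CS-PA/CNP of all members, at 22.9%. It had 5.49, 9.63 and 7.48 CPM with both agents, 5.34, 8.97 and 6.03 CPM with PgLPS, 12, 14.7 and 15.7 CPM with CS-PA/CNP, and 61, 65.1 and 59.1 CPM in control. The both-agents and PgLPS libraries overlapped, and all 6 lay below the other groups. The difference was 0.10 ± 0.20 (edgeR BH-adjusted p = 0.79), with a 95% interval of −0.29 to 0.49, which leaves out a 2-fold difference either way.

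Frmd6, a FERM domain protein of the Hippo pathway, had 7.60, 7.93 and 9.45 CPM with both agents, 7.54, 5.15 and 7.22 CPM with PgLPS, 16.9, 18.4 and 15.1 CPM with CS-PA/CNP and 37.1, 36.8 and 35.7 CPM in control. Its both-agents libraries lay just above those of PgLPS, without a call (0.28 ± 0.14, edgeR BH-adjusted p = 0.20). Fgf13, an intracellular fibroblast growth factor homologue, had 0.67 ± 0.35 (edgeR BH-adjusted p = 0.21). The catenin genes Ctnnd2 and Ctnnal1 lay at 8.30% and 15.6% of control with both agents and at 12.5% and 20.6% with PgLPS. Map2, a microtubule-associated protein, had 12 reads with both agents and 17 with PgLPS, and the formin Fhdc1 had 21 and 9.

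Smpd3, the neutral sphingomyelinase that makes ceramide, was the only one of 8 metabolic genes to be called. It had 1.52, 0.721 and 0.675 CPM with both agents, 0.534, 0.166 and 0.416 CPM with PgLPS, 6.45, 8.85 and 9.21 CPM with CS-PA/CNP, and 21.6, 21.4 and 20.9 CPM in control. Smpd3 rose by 1.34 ± 0.44 (edgeR BH-adjusted p = 0.036), with both-agents library 1 the highest. The log2 fold change was 0.88 without that library (edgeR BH-adjusted p = 0.22), and the call was also lost without PgLPS library 2 (edgeR BH-adjusted p = 0.13) or PgLPS library 3 (edgeR BH-adjusted p = 0.074), and in the fit of both agents and PgLPS alone (edgeR BH-adjusted p = 0.12). Smpd3 overlaps Prmt7, which had 54.3 CPM in control, on the opposite strand, and whether its counts include reads of that gene is unknown, since no strand setting was given.

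Hpgd, which inactivates prostaglandins, had 1.34, 0.927 and 0.736 CPM with both agents, 0.267, 0.332 and 0.987 CPM with PgLPS, 9.36, 6.91 and 6.97 CPM with CS-PA/CNP and 20.3, 17.1 and 22.4 CPM in control. Its both-agents and PgLPS libraries overlapped, and the difference of 0.80 ± 0.42 was not called (edgeR BH-adjusted p = 0.21). Chac1, which degrades glutathione and is a target of the integrated stress response, was at 72.5% of control with both agents, 68.2% with PgLPS and 41.1% with CS-PA/CNP. The neutral amino acid transporter Slc1a4 was at 40.4%, 38.1% and 43.1% in the same groups. Pgm5, a phosphoglucomutase-related protein, had 5 reads with both agents and none with PgLPS, against 55 with CS-PA/CNP and 137 in control. With 3 reads over the PgLPS libraries (0.0574 CPM) taken as the floor, its both-agents mean was 1.63-fold that floor. The 5 reads have counting error of their own, so 1.63 is not a lower limit, and Pgm5 was not called. The glycerol-3-phosphate dehydrogenase Gpd1, the monoacylglycerol lipase Abhd6 and Cmah, a gene of sialic acid metabolism, were not called either.

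Tspan33, a tetraspanin, was the only one of 4 myeloid surface and differentiation genes to be called. It had 1.11, 1.08 and 1.17 CPM with both agents, 0.133, 0.277 and 0.519 CPM with PgLPS, 2.54, 3.94 and 3.09 CPM with CS-PA/CNP, and 7.24, 6.11 and 5.91 CPM in control. The groups did not overlap. Tspan33 rose by 1.72 ± 0.41 (edgeR BH-adjusted p = 0.0050), and by 2.32 without PgLPS library 3. Fcrls, an Fc receptor-like scavenger receptor, had 11.7, 10.8 and 9.75 CPM with both agents, 12.3, 10.1 and 10.6 CPM with PgLPS, 17.4, 13.8 and 18.0 CPM with CS-PA/CNP, and 37.2, 40.0 and 41.9 CPM in control. For Fcrls both agents and PgLPS overlapped (−0.08 ± 0.13, edgeR BH-adjusted p = 0.73), with a 95% interval of −0.33 to 0.17.

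Cd207, the C-type lectin langerin, was at 12.5% of control with both agents and 6.27% with PgLPS (0.92 ± 0.48, edgeR BH-adjusted p = 0.21). Ocstamp, a transmembrane protein needed for osteoclast fusion, had 0.117, 0.721 and 0.307 CPM with both agents, 0.333, 0.332 and 0.104 CPM with PgLPS, 0.744, 0.788 and 0.349 CPM with CS-PA/CNP and 1.70, 1.73 and 3.21 CPM in control. It is also 1 of 8 osteoclast markers, whose summed level was 386.8 to 452.2 CPM with CS-PA/CNP, against 563.1 to 585.7 CPM in control. Within that list Atp6v0d2 averaged 281.2 CPM with CS-PA/CNP, against 409.3 CPM in control, and Dcstamp 25.5 against 48.1 CPM, while Acp5 averaged 25.0 against 20.8 CPM and Calcr had no reads. The part of this in the lower levels with CS-PA/CNP was not tested.

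Of 4 genes of chromosome and DNA repair, Fancb, a subunit of the Fanconi anaemia core complex, was called. It had 1.05, 1.85 and 0.981 CPM with both agents, 3.20, 2.71 and 2.39 CPM with PgLPS, 2.05, 2.48 and 2.14 CPM with CS-PA/CNP, and 2.56, 5.42 and 5.84 CPM in control. Control library 1 lay within the range of PgLPS. Fancb fell by 1.11 ± 0.34 with both agents against PgLPS (edgeR BH-adjusted p = 0.025). The call was lost without PgLPS library 1 (edgeR BH-adjusted p = 0.075), without both-agents library 1 (edgeR BH-adjusted p = 0.094) and without both-agents library 3 (edgeR BH-adjusted p = 0.096). Cenpm, a centromere protein, had 18 reads with both agents and 6 with PgLPS, and Lrr1, a subunit of a ubiquitin ligase, had 10 and 5. Neither these nor the centrin Cetn4 was called.

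Among the 10 remaining members, Sncaip rose and Fhad1 and Tmtc2 fell. Sncaip, which encodes the synuclein-binding protein synphilin-1, had 7.83, 5.46 and 5.28 CPM with both agents, 1.80, 2.33 and 2.03 CPM with PgLPS, 14.4, 12.4 and 15.9 CPM with CS-PA/CNP, and 29.1, 31.8 and 27.5 CPM in control. The groups did not overlap. Sncaip rose by 1.53 ± 0.20 (edgeR BH-adjusted p = 1.2e-05), to 21.0% of control, against 6.96% with PgLPS.

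Fhad1, a protein with a forkhead-associated domain, had 4.33, 4.58 and 5.89 CPM with both agents, 8.20, 7.59 and 6.75 CPM with PgLPS, 2.79, 2.79 and 3.49 CPM with CS-PA/CNP, and 6.82, 5.71 and 7.13 CPM in control. It was lowest with CS-PA/CNP alone and fell by 0.66 ± 0.17 when CS-PA/CNP was present beside PgLPS (edgeR BH-adjusted p = 0.0092). Tmtc2, a mannosyltransferase of the endoplasmic reticulum, had 0.234, 0.618 and 0.920 CPM with both agents and 2.13, 0.831 and 1.82 CPM with PgLPS, with PgLPS library 2 inside the both-agents range. Tmtc2 fell by 1.47 ± 0.44 (edgeR BH-adjusted p = 0.022). Its call was lost without PgLPS library 1 (edgeR BH-adjusted p = 0.091), PgLPS library 3 (edgeR BH-adjusted p = 0.083) or both-agents library 1 (edgeR BH-adjusted p = 0.10), and in the fit of both agents and PgLPS alone (edgeR BH-adjusted p = 0.067).

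Otud1, a deubiquitinase, had 12.8, 15.9 and 12.6 CPM with both agents, 10.3, 12.7 and 12.1 CPM with PgLPS, 15.1, 17.5 and 16.9 CPM with CS-PA/CNP and 44.2, 41.4 and 36.0 CPM in control. Its levels with either agent or with both were thus near each other and below control, and the difference between both agents and PgLPS was 0.18 ± 0.13 (edgeR BH-adjusted p = 0.37). Pmepa1, an inhibitor of TGF-beta signalling, was the member whose control libraries spread most widely relative to their mean, at 2.43, 0.980 and 3.47 CPM, against 0.434, 0.788 and 1.29 CPM with CS-PA/CNP. It was the only member whose CS-PA/CNP and control libraries overlapped. Lrrc39, Fam214a, Fbxo48, Ctla2a and 4931422A03Rik were not called. Lrrc39, Cetn4 and 4931422A03Rik also overlap genes on the opposite strand that had 8.76 CPM or more in control, and whether their counts include reads of these neighbours is unknown too.

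The groups compared here differed in markers of other cell types. Between both agents and PgLPS, macrophage markers overlapped (25892.3 to 27081.6 CPM with both agents, 24807.0 to 26535.3 CPM with PgLPS). The 8 stromal markers summed to 1.96 to 4.15 CPM with both agents and 5.19 to 47.3 CPM with PgLPS, with PgLPS library 1 the highest. Of the 4 stromal markers tested, edgeR called 3 lower with both agents, and the 4 had a median log2 fold change of −2.55. Among 2 dendritic cell and 4 endothelial markers tested, 1 of each was called lower and 0 higher, and of 3 erythroid and megakaryocyte markers 1 was called higher. The 9 neutrophil markers summed to 129.0 to 150.6 CPM with both agents and 162.4 to 177.0 CPM with PgLPS. Most of this came from S100a9 (72.7 against 87.9 CPM) and S100a8 (41.8 against 52.2 CPM). Camp, Ltf and Cxcr2 also had lower means with both agents, while Mpo (0.978 against 0.666 CPM), Elane, Retnlg and Ly6g had higher ones. Of the 7 neutrophil markers tested, edgeR called 1 lower. Mast cell and basophil markers, 6 of 8 with reads, summed to 14.9 to 17.9 CPM with both agents and 28.7 to 33.1 CPM with PgLPS, with Hdc (11 against 27.1 CPM) the only one of the 5 tested to be called. Of the others, Cpa3 (1.05 against 0.508 CPM), Ms4a2 (0.835 against 0.448 CPM) and Gata2 (1.92 against 1.5 CPM) had higher means with both agents, uncalled, and the 5 had a median log2 fold change of 0.28. Erythroid and megakaryocyte markers summed to 486.3 to 551.0 CPM with both agents and 308.3 to 425.8 CPM with PgLPS, mostly from Pf4 (504.5 against 357.3 CPM). The part of these in the members' values was not tested, and calls lost without 1 library are given beside the genes.

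Values on either side of the threshold lay close together. Just inside were Tspan33 at 49.67% of control with CS-PA/CNP, Gpd1 at 49.49%, Bcl7a at 49.0% and Sncaip at 48.31%. Just outside were Ksr2 at 50.03%, Chst7 at 50.17%, Pde1c at 50.35% and Tpbgl at 50.36%. Bco2, Rad51b and Fosb met the ratio but lay just under 2 CPM in control, at 1.83, 1.91 and 1.99 CPM. Many members were near that floor too, since 22 of 61 had under 5 CPM in control, and the median was 7.39 CPM, against 36.3 CPM over all genes with at least 2 CPM.

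In the annotation deposited with the counts, 21 members (34.4%) carried the term plasma membrane, as did 18.1% of genes with at least 2 CPM in control. G protein-coupled receptor activity was given for 4 members (6.56%, against 0.726%), signal transduction for 8 (13.1%, against 4.87%) and nucleus for 12 (19.7%, against 40.6%). The members lay on 19 chromosomes, 8 of them on chromosome 2 (13.1%, against 7.98%). These shares describe the deposited annotation and carry no test.

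Of 15 pathway lists of macrophage biology, 1 held any of the 61 genes, with Chac1 in the list of serine synthesis and integrated stress genes. The counts below thus describe genes that, apart from Chac1, are not members. Over all 11656 tested genes, 9.42% rose and 10% fell by the edgeR test at a BH-adjusted p under 0.05. No list was tested against these shares. With both agents against PgLPS, 10 of 33 tested genes of the signalling receptor list rose and 12 fell by the edgeR test, as did 6 and 4 of 24 macrophage identity genes, 4 and 4 of 17 growth and repair factors, 4 and 15 of 34 matrix and adhesion genes, and 7 and 9 of 25 immediate-early and ERK genes. Of 17 NRF2 targets 14 rose and 1 fell, and of 23 cholesterol and fatty acid synthesis genes 13 rose and none fell, by DESeq2 or at an unadjusted edgeR p under 0.05 as well. In the chemokine and cytokine list 1 of 23 rose and 15 fell, and in glycolysis and hypoxia 1 of 24 rose and 11 fell. In the interferon-stimulated list none of 23 rose by edgeR (3 at an unadjusted p under 0.05, and 2 by DESeq2) and 9 fell. The counts of rises and falls were 4 and 2 of 26 cell cycle genes, 6 and 6 of 18 genes of LXR and lipid handling, 4 and 6 of 17 alternative activation genes, 1 and 8 of 22 genes of Wnt, Notch and TGF-beta signalling, and 2 and 2 of 17 genes of serine synthesis and integrated stress.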

How the data were processed

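The authors deposited 1 table of raw read counts per gene, whole numbers in 12 columns. A further 12 columns of length-scaled values (per the file headers) were not used. The submitters' processing notes list HISAT2 2.0.5, cutadapt 1.15, DESeq 1.30.0 and HTSeq 0.9.1 and assign none of them a step. Build, annotation and strand setting were not given in the sources used here. Per the labels' protocols, fragments were amplified by PCR and read on a NovaSeq. A column's group was read from the letters that start its name, which the labels do not explain. Library numbers are those of the columns.

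Levels are CPM on library totals, with no pseudocount. Counts of all 12 libraries entered 1 fit with edgeR 4.0.16 in R 4.3.3 (TMM, filterByExpr by group, quasi-likelihood F test, 2-sided), checked beforehand on simulated data. All 61 members passed the filter, which kept 11656 genes, and BH adjustment ran over these. Values after ± are standard errors, taken from the fold change and its F statistic, and 95% intervals follow from them. Both agents against PgLPS was the comparison tested. The others share libraries with the rule. Alternatives were library totals, DESeq2's size factors, DESeq2 1.42.0, no filter, a fit of 2 groups, libraries left out and a block by library number. The 2-fold counts were added after seeing the data.

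The members and lists were chosen with earlier results of these data known. The named genes are members with the lowest CS-PA/CNP ratio, the highest control CPM, the largest calls without overlap, the highest or lowest PgLPS ratio, a place in a list or a place next to the threshold, and Tmtc2 for its call alone, 36 genes in all. The other genes named, and the role groups, were chosen after values were seen. Between replicates the chi-square per gene was 2.79 to 18.2, more than sampling noise gives. The floor of 3 counts covers counting error alone, because amplified reads carry no molecular identifiers.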

Additional observations from a re-analysis of the deposited data

Results flagged for a closer look

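For 13 of the 14 members that rose, every library lay below control with CS-PA/CNP alone, while every library with both agents lay above those with PgLPS alone. The opposite directions drew attention to them. The direction against control was fixed by the way the genes were chosen, and the difference between the directions was not tested. Their log2 fold changes with both agents over PgLPS were 2.43 for Nptx1, 2.31 for Plekhh2 (not testable in the fit of both agents and PgLPS alone), 1.72 for Tspan33, 1.53 for Sncaip, 1.47 for Npas4, 1.34 for Smpd3, 1.20 for Col4a5, 1.15 for Efr3b, 1.13 for Kitl, 1.04 for Pcp4l1, 1.02 for both Rasgrp3 and Rgs1, and 0.97 for Bcl7a.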

How the results depend on the processing

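With both agents against PgLPS, 14 members rose and 6 fell under library totals, DESeq2's size factors, DESeq2 and no filter on low counts too. In a fit of the PgLPS and both-agents libraries alone, where 39 members were tested, 9 rose and 5 fell, 1 of them at least 2-fold. The share over all genes in that fit is not given here. Pcp4l1, Smpd3, Bcl7a and Tmtc2 were tested and lost their call there (edgeR BH-adjusted p = 0.051, 0.12, 0.14 and 0.067). Leaving out 1 library at a time gave 12 to 14 rises and 4 to 7 falls, 0 to 3 of these falls at least 2-fold, and a median log2 fold change of 0.22 to 0.42. The count of falls of at least 2-fold, chosen after seeing the data, was 2, and it was 0 without PgLPS library 1 or both-agents library 1. Among uncalled genes the sign turned over the same libraries for Nes (−0.13 to 0.37), Chac1 (−0.19 to 0.22), Map2 (−1.05 to 0.50), Pmepa1 (−0.04 to 0.19), Olfr110 (−0.85 to 0.06), Ocstamp (−0.30 to 1.01) and Zfp618 (−0.14 to 1.67). The cause was not tested.

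The rule gave 39 members with a control minimum of 5 CPM, 53 on the TMM scale, and 62 to 73 without 1 control or CS-PA/CNP library, of which 52 to 57 were among the 61. Column numbers were tried as a replicate block. Same-numbered libraries of both agents and PgLPS correlated at 0.118, 0.224 and 0.074 in their deviations, and the other pairs at −0.164 to 0.061. Each library thus correlated best with its own number. Whether same-numbered libraries share a culture or a batch was not tested, and the labels do not say. The block gave 14 rises and 6 falls. Depth limits the 32 members with under 50 PgLPS reads.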
